A study of Mus musculus with 4 samples.

Results

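RUNX1 peak sites that overlap peaks of 2 libraries titled for the histone mark H3K27me3 were described from 4 ChIP-seq peak lists of mouse cells. An overlap of peak calls does not show that a site is bound by RUNX1 or carries the mark. Windows of 200 bp on either side of each RUNX1 summit, merged over both RUNX1 lists, gave 24530 sites on chromosomes 1 to 19. Of these, 1194 (4.87%) overlapped a peak of each of the 2 H3K27me3 lists and are called members. Another 668 sites lay under a peak of 1 H3K27me3 list only, 296 under the library titled untreated and 372 under the library titled DOX, and 22668 lay under neither. The members were thus chosen from the peak calls themselves, so their presence in the lists is a description and not a finding. At members the smaller of the overlaps with the 2 H3K27me3 lists had a median of 128 bp, and 10 members overlapped by less than 20 bp. The least overlap was 2 bp, at Has3 on chromosome 8 and Adcy5 on chromosome 16. Just outside the rule lay sites near Nexn, 2 bp from a peak of the second list, and near Gprc5c and Macrod2, 3 bp from one, and 113 of the 668 sites under 1 list had a peak of the other within 200 bp.

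The cells were hematopoietic progenitors, collected as floating cells after 2 days of in vitro differentiation from mouse embryonic stem cells (ESCs) with the genotype Tet-on dominant-negative FOS. In these ESCs, Doxycycline (DOX) switches on dnFOS, a FOS peptide that keeps AP-1 proteins from binding DNA, and the cells grown without DOX carry the same construct. There was 1 library for each of RUNX1 with DOX, RUNX1 without DOX, and the 2 H3K27me3 libraries, so a difference between libraries has no replicate error to stand against, and it is given without a test. The run name inside each RUNX1 list gives the treatment opposite to its sample label, so these libraries are called by their labels, +DOX and -DOX, and a direction between them holds only if those are right. For each H3K27me3 library the title and the treatment field contradict each other, so these libraries are told apart by title and assigned to no condition. Their antibody field reads H3K27me3, but the written protocol describes one against RUNX1. The lists hold 21467 and 18052 RUNX1 peaks (labelled +DOX and -DOX) and 6216 and 7071 H3K27me3 peaks (titled untreated and DOX), with no tag counts, so the depth is unknown, and with no expression, so the labelled cell type was not checked against markers. The strength of a peak is given as its -log10 q, the confidence of the peak caller that it stands above local background, in the order RUNX1 labelled +DOX, RUNX1 labelled -DOX, H3K27me3 titled untreated, H3K27me3 titled DOX.

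RUNX1 is a DNA-binding factor that is required for blood cells to emerge from endothelium, and it recognizes the motif TGTGGTT. H3K27me3 is set by Polycomb repressive complex 2 and is known for covering CpG-rich promoters of developmental regulators that a cell does not use. Repeats such as satellite arrays near centromeres and telomeric sequence are present in many copies in a genome, of which the reference assembly holds only a part, and reads from the missing copies can be placed on the copies that are there. Both CpG-rich promoters and repeats were present among the members, and they are described apart.

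To show what the members are made of, 101 bases around the RUNX1 summit of 9 of them are printed from the plus strand of mm10. In the first 4, chosen for strength or for a repeat, capitals mark bases inside a word of 31 bases that also occurs elsewhere in the genome. These are the member with the highest -log10 q in its weakest list (near Gm44436, chr6:103649147-103649247), the one with the highest RUNX1 value (near Gm33838, chr9:35305378-35305478), one of a cluster on chromosome 9 (near Gm26870, chr9:3038096-3038196) and the one with alternating A and T that was highest in the library titled untreated (near Gm24896, chr9:5117181-5117281).
Gm44436: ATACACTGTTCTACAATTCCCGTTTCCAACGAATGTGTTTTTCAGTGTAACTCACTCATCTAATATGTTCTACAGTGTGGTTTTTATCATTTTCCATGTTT
Gm33838: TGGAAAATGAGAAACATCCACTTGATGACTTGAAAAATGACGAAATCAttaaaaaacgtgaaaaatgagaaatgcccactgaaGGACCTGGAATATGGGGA
Gm26870: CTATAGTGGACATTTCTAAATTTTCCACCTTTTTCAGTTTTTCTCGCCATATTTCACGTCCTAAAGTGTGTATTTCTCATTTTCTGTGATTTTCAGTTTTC
Gm24896: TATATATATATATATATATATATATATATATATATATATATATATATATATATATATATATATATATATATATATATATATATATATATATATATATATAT

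The next is shown because it is a nuclear copy of mitochondrial DNA (near Gm28438, chr1:24613062-24613162), and its capitals mark bases inside 31-base words of the mitochondrial genome. Then follow promoter members of the homeobox gene Hoxd8 (chr2:74705726-74705826, coding exon), of the axon guidance gene Sema7a (chr9:57940162-57940262, coding exon) and of the homeobox gene Prrx2 (chr2:30834691-30834791, intergenic), with CpG dinucleotides in capitals. The last one is distal, next to Cyp2b19 (chr7:26779956-26780056, intergenic), with a RUNX motif in capitals.
Gm28438: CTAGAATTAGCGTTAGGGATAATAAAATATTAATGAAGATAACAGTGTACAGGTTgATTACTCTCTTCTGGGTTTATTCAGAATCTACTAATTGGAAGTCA
Hoxd8: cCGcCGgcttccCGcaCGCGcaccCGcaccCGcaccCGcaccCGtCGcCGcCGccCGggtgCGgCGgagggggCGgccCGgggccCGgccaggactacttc
Sema7a: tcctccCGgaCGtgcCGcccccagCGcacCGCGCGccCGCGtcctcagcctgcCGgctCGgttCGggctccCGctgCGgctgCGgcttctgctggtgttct
Prrx2: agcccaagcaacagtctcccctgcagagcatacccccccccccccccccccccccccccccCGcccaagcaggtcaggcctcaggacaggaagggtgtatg
Cyp2b19: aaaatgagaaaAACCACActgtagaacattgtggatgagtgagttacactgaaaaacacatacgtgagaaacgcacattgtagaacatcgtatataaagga

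These windows show the range among the members. Alternating A and T fill the window near Gm24896, with 0 CpG. The Hoxd8 window holds 18 CpG and the Sema7a window 15, while the promoter member of Prrx2 has 1 CpG and carries a long run of C at its summit.

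Members were put in 3 groups. A total of 134 members had a peak in every list that was within the top 5% of -log10 q of that list (above 43.6, 44.3, 28.9 and 28.3) and are called high in all lists. They were selected for standing out in every list and are described as a group of their own. Values given over all members, or over the members of a gene list, include them. Whether they are artefact positions was not tested. Of the other members, 573 had their centre within 1500 bp of an annotated transcription start (promoter members) and 487 did not (distal members). The values that chose the first group were, just inside the limit, 51.0, 44.4, 35.1 and 39.3 at Plekhg1, and, just outside it, 43.1, 45.6, 64.3 and 105 at Gm5626. Median -log10 q was 90.7, 89.7, 89.4 and 97.4 at members high in all lists, 7.24, 6.99, 9.41 and 7.70 at promoter members, and 16.5, 16.0, 14.2 and 18.4 at distal members. Promoter members were therefore weak in the RUNX1 lists, with a median at percentile 41.7 of the list labelled +DOX, and distal members were intermediate, at percentile 76.6. The promoter RUNX1 sites under neither H3K27me3 list lay at percentile 56.6 and the distal ones at 44.6, the opposite order.

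**Figure D1:**
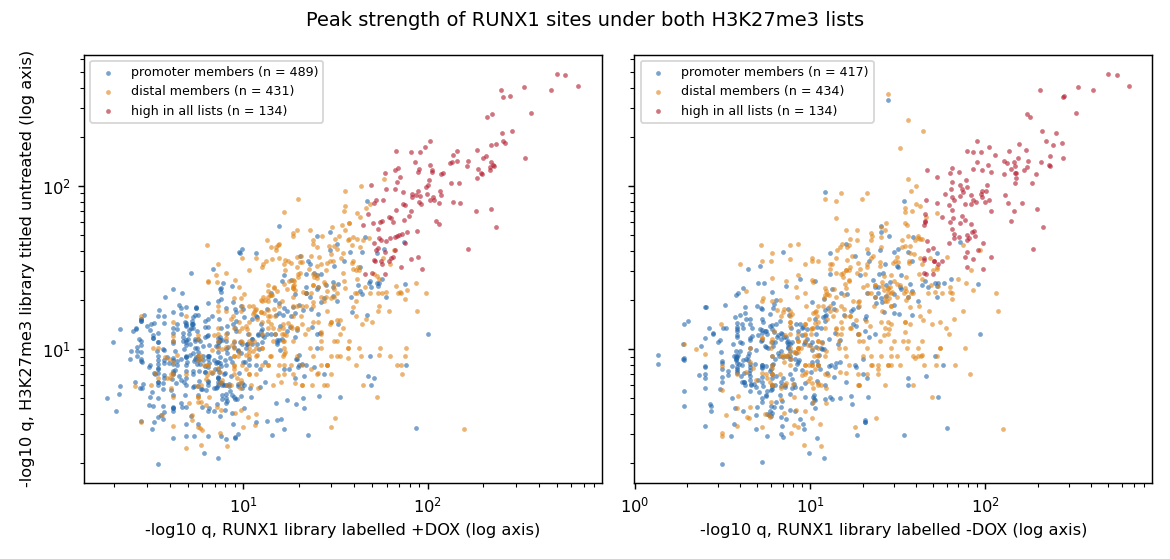
Each point is a member, with the -log10 q of its RUNX1 peak on the horizontal log axis (left, library labelled +DOX; right, library labelled -DOX) and that of its H3K27me3 peak in the library titled untreated on the vertical log axis. The 134 members high in all lists were selected to lie at the upper right; promoter members gather at the lower left and distal members lie between them.

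Over all members the promoter share was 49.9% (95% Wilson interval 47.1 to 52.7), against 54.2% (53.5 to 54.8) of sites under neither list. All such intervals cover counting error over sites only, and sites that share a repeat or a locus are not independent. The share fell from 54.1% without the members high in all lists to 17.2% (11.7 to 24.4) among them. It depended on peak strength, at 25.6% when only the 5000 strongest peaks of each list were used. The summit lay in a coding exon at 22.9% (19.6 to 26.5) of promoter members, against 1471 of 12278 promoter sites under neither list (11.98%), and in an untranslated region at 26.2% (22.7 to 29.9) against 31.3% (30.5 to 32.1). Relative to the direction of transcription, 61.1% of RUNX1 summits labelled +DOX and 68.1% of H3K27me3 summits titled untreated at promoter members lay downstream of the nearest start, with medians of 54 and 142 bp.

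Repeat sequence was more frequent at members than at sites under neither list, and sites under 1 list shared this in part. At least 50% of the bases were soft-masked, that is, marked as repeat in the reference, at 27.2% (24.8 to 29.8) of members and at 4.10% (3.85 to 4.36) of sites under neither list. The share was 41.0% (33.1 to 49.5) at members high in all lists, 44.8% (40.4 to 49.2) at distal members and 9.08% (6.99 to 11.7) at promoter members. The distal and promoter sites under neither list had 7.85% and 0.920%. At least 50% of the 31-base words of a site occurred elsewhere in the genome, which is called multi-copy here, at 26.6% (24.2 to 29.2) of members against 3.803% (3.56 to 4.06) of sites under neither list. Sites under 1 list had 16.0% (13.4 to 18.99) soft-masked and 29.3% (26.01 to 32.9) multi-copy, the latter as high as at members. Among the groups of members the multi-copy share was highest at distal members, at 38.6% (34.4 to 43.0). An assembly gap lay within 10 kb of 6.95% of members and of 0.454% of sites under neither list. With both measures together, 727 members (60.9%, 58.1 to 63.6) were neither soft-masked nor multi-copy to this extent, and these included 464 promoter members, 198 distal members and 65 members high in all lists. CpG-rich sequence (GC of at least 50% and an observed over expected CpG ratio of at least 0.6) was found at 81.0% (77.6 to 84.0) of promoter members, above the 74.2% (73.4 to 75.0) of promoter sites under neither list.

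**Figure D2:**
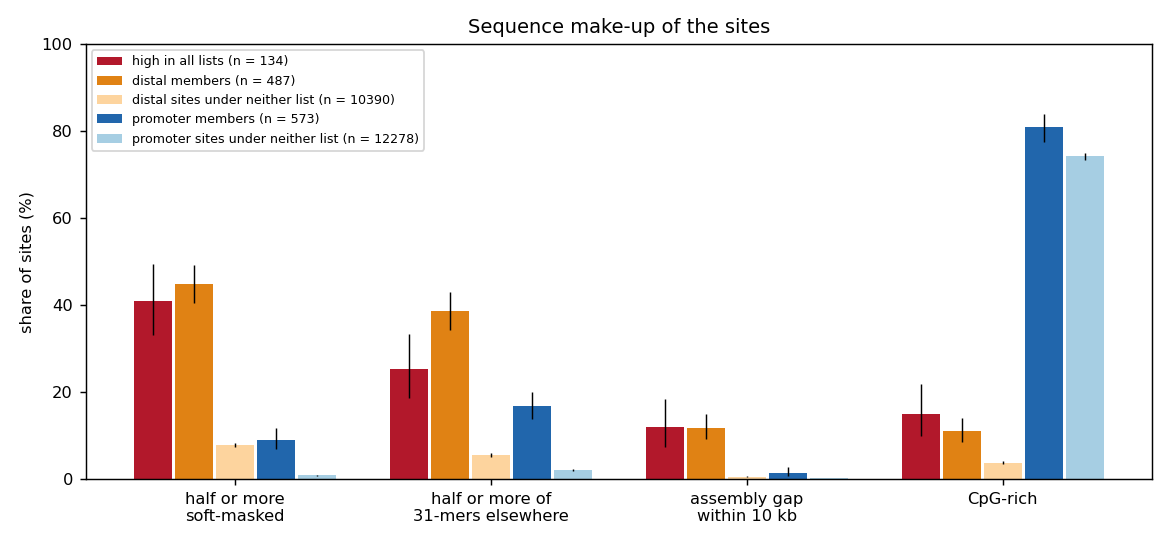
Bars give the share of sites in percent, with 95% Wilson intervals as error bars, for the 3 groups of members and for distal and promoter RUNX1 sites under neither H3K27me3 list. Soft-masked and multi-copy sequence and nearby assembly gaps were more frequent at members high in all lists and at distal members than at sites under neither list, and CpG-rich sequence was most frequent at promoter members.

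Some kinds of tandem repeat were more frequent at members than at other sites. Tandem runs were searched for as a unit of at most 6 bases repeated without a mismatch over at least 18 bases, on either strand. The telomeric repeat unit, which caps chromosome ends and also lies in short interstitial stretches, gave such a run at 116 members (9.72%, 8.16 to 11.5) and at 48 of 22668 sites under neither list (0.212%). Put the other way, 61.4% of the 189 RUNX1 sites with a telomeric run were members. They were spread over 18 chromosomes and 115 nearest genes, and 40 of them were high in all lists. A run of C or G was found at 53 members (4.44%, 3.41 to 5.76) and at 0.291% of sites under neither list, and 38.4% of RUNX1 sites with such a run were members. Runs of A or T and of alternating A and C were less distinctive, with 7.01% and 6.27% of the RUNX1 sites that hold them being members.

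**Figure D3:**
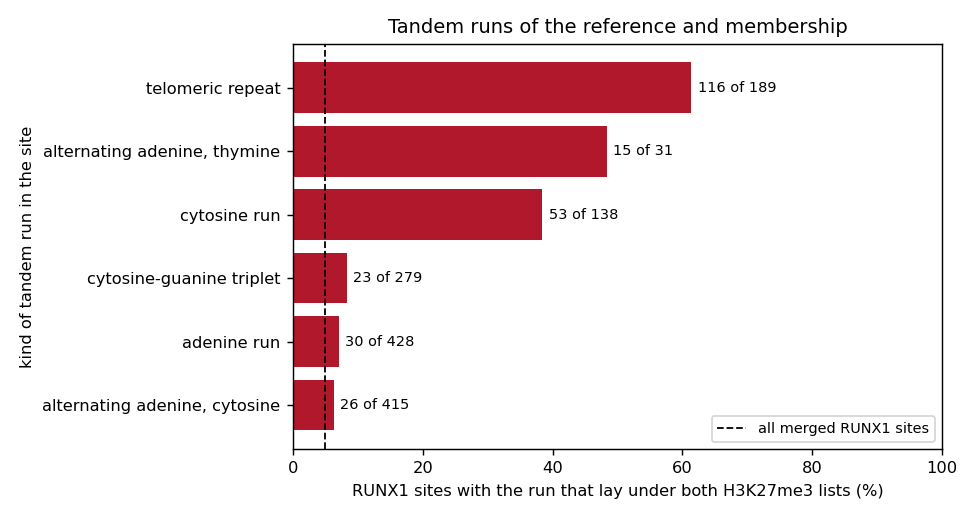
Bars give, for RUNX1 sites that hold a tandem run of each kind, the percentage that lay under both H3K27me3 lists, with the counts beside the bars and the share over all merged RUNX1 sites (4.87%) as a dashed line. Telomeric repeat, alternating A and T, and runs of C lie far to the right of that line, at 61.4%, 48.4% and 38.4%, and the other kinds lie at 8.24% or below.

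Among the members high in all lists, 3 (2.24%, 0.764 to 6.38) were next to a listed developmental gene, near the 2.08% of all RUNX1 sites, and all 3 held a telomeric run. The site in an intron of Flt1, which encodes a receptor of vascular endothelial growth factor, is on chromosome 5 from 147611318 to 147611719 and had -log10 q of 207, 235, 152 and 137. The site in an intron of Efna5, an ephrin ligand, lay 143559 bp from the nearest start and had 89.0, 101, 92.6 and 83.7. The intergenic site with the semaphorin gene Sema6d as nearest gene lay 86253 bp from its start. It had 71.9, 79.0, 31.8 and 35.1. The telomeric sites next to Dop1b (219, 241, 178 and 166) and in Lama1 (145, 175, 142 and 135) were of the same strength. Among members with a run of C, those near BC048403 and Mylip were high in all lists, and the homeobox members at Prrx2 (6.42, 6.07, 9.03 and 7.79) and in an intron of Cux2 (27.4, 25.2, 20.7 and 32.1) were not.

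The strongest positions of all belonged to satellite-like sequence. A cluster of 37 members filled 38.1 kb at the start of chromosome 9 (3000285 to 3038346), and all 37 were both soft-masked and multi-copy. The cluster held only 3 members high in all lists. Its RUNX1 values ran from 13.6 to 162 and its H3K27me3 values from 10.9 to 89.5. Its sequence, of which the Gm26870 window is an example, is the mouse major satellite of pericentromeric chromatin, an array of which the assembly holds short stretches only. Outside this cluster 22 of 24493 RUNX1 sites shared at least 5 words of 21 bases with it, and all 22 were members, 17 of them high in all lists, with 0 of 22668 sites under neither list. The site near Gm33838 in an intron on chromosome 9 had the highest RUNX1 values of any member, 655 and 657, with 408 and 294 in the H3K27me3 lists. Near Gm9075 at the start of chromosome 12 (3109760 to 3110168) the values were 554, 562, 482 and 343. The member near Gm9634 on chromosome 13 had 332, 336, 405 and 409, and the one in Cdk5rap2, which encodes a centrosome protein, had 257, 276, 349 and 372. Others of the 22 were next to Ank1, Litaf, Oasl1, Gm10800, Gm10801 and Pisd-ps1.

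The member with the highest -log10 q in its weakest list, near Gm44436 on chromosome 6, had 501, 501, 486 and 361 and was not among the 22. Its sequence is that of the mouse minor satellite, the repeat on which centromeres are built. Of the other 24529 RUNX1 sites, 6 shared at least 5 words of 21 bases with it, and all 6 were members. They lay near Gm47772 (279, 281, 355 and 360), Gm23950, Gm10801, Gm10800, Cyp2b19 (22.9, 16.0, 53.4 and 99.7) and Vmn2r102. All 7 sites held the RUNX motif, as the printed windows of Gm44436 and Cyp2b19 show, so at these sites the motif is part of the repeat.

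Other strong members lay in genes. In the untranslated region of Lars2, a mitochondrial leucyl-tRNA synthetase, the values were 337, 278, 148 and 154. In an intron of Jarid2, a partner of Polycomb repressive complex 2, they were 68.6, 64.1, 130 and 130, and 62.0% of its 31-base words occurred elsewhere. On chromosome 17 members at the ribosomal RNA-like genes Gm26917 (77.1, 83.6, 52.4 and 31.4) and Gm42418 (29.5, 25.5, 52.4 and 31.4) shared their H3K27me3 peaks, and the second was below the limit for the strong group in both RUNX1 lists. At 4 members at least 50% of the 31-base words were mitochondrial, and no other RUNX1 site had this. They lay near Gm28438 on chromosome 1, Gm13341 and Gm13340 on chromosome 2 and Gm47397 on chromosome 12, the last with 61.8, 117, 17.1 and 28.3.

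Runs of alternating A and T were divided between the libraries. They were found at 15 members, and each of the 15 had its RUNX1 summit from the -DOX list, with 0 peaks in the other list. Over all RUNX1 sites the run was present at 31, 18 from the -DOX list alone, 6 from the +DOX list alone and 7 from both. In the library titled untreated the 15 members reached a median -log10 q of 90.3, at percentile 98.8 of that list, against 39.4, at percentile 96.6, in the library titled DOX. The value titled untreated was the higher at 15 of 15 of them, and it was so at 151 of the 487 distal members. The highest value in the library titled untreated was near Gm24896 on chromosome 9 (summit window above), with 27.8 in its RUNX1 list and 368 and 71.3 in the H3K27me3 lists. Those near Gm22854 (27.8, 336 and 94.6), between genes next to Cenpf, a kinetochore protein gene (36.3, 255 and 91.2), and near Gm29229 (44.1, 218 and 75.2) were of the same kind. What differed between the libraries beside their labels was not tested.

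Multi-copy members lay in families and clusters. A family was formed of members that share at least 50% of their 31-base words, and 36 families held 118 members. Members within 100 kb of each other in groups of at least 5 formed 15 clusters with 143 members in all. Beside the 37 on chromosome 9, the largest were 17 members at Pisd-ps1 and Sfi1 on chromosome 11 (3100282 to 3199976) and 12 at Gm49792 on chromosome 17 (3006631 to 3082584), with 5 and 11 of them within 10 kb of an assembly gap. A cluster of 10 members between Atg7 and Hrh1 on chromosome 6 (114341531 to 114636866) held 8 multi-copy ones. Of 7 members near Rny3 and Gm25283 on chromosome 6 (47659859 to 47778407) and 6 near Fcgr3, an immunoglobulin receptor gene, on chromosome 1 (171064382 to 171081081), all were multi-copy and 0 were soft-masked. The same held for 6 members at Duxf3 and AW822073 on chromosome 10. Speer4 genes, a testis-expressed family, gave 2 clusters of 6 and 5 members on chromosome 5. The clusters on chromosomes 1, 5, 6 and 10 held 0 members high in all lists, with RUNX1 values between 2.59 and 39.1. Small RNA genes were nearest to 6.70% (5.42 to 8.26) of members, against 4.16% of sites under neither list, and pseudogenes to 15.9% against 1586 of 22668 sites. Genes of large families (olfactory and vomeronasal receptors, immunoglobulin segments, histocompatibility, interferon and similar genes) were nearest to 42 members (3.52%, 2.61 to 4.72), against 0.840% of all RUNX1 sites.

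Promoter members held the developmental regulators. The nearest gene was on a list of Hox, other homeobox, Fox, Sox, T-box, basic helix-loop-helix, zinc finger or signalling genes at 58 members (4.86%, 3.78 to 6.23), against 2.08% of all RUNX1 sites. Sites under 1 list had 5.99% (4.43 to 8.05), so the share was not particular to sites under both lists. Among promoter members the share was 8.73% (6.68 to 11.3), against 1.91% (1.68 to 2.16) of promoter sites under neither list. Of the 58, 51 were CpG-rich, 0 were multi-copy, 4 were soft-masked over 50% or more and 2 held the RUNX motif. Their median -log10 q was 5.60 and 6.28 in the RUNX1 lists, against whole-list medians of 8.67 and 8.23. In the H3K27me3 lists it was 10.7 and 7.65, against whole-list medians of 6.48 and 5.26. Promoter members as a whole had medians of 7.24, 6.99, 9.41 and 7.70. The pattern was thus not particular to developmental genes, and peaks in both H3K27me3 lists were required of every member. When only the 5000 strongest peaks of each list were used, 7 of 488 members (1.43%) remained next to such a gene.

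Hox genes, which pattern the body axis, were nearest to 6 of the 1194 members (0.503%, 0.231 to 1.09) and to 13 RUNX1 sites in all (0.0530%). Hoxa4 had 6.83, 4.41, 30.8 and 16.6, the highest H3K27me3 values of the Hox members. Hoxa13 had 3.17, 4.56, 14.2 and 12.3. At Hoxd8 there were 2 members, with 7.41, 10.3, 11.0 and 4.40 in its coding exon and 4.61, 10.3, 4.65 and 4.83 in its intron. The value of 10.3 is from the same peak at both, which has its summit in the coding exon site. Hoxd1 and Hoxd13 had a RUNX1 peak only in the library labelled -DOX, of 5.94 and 5.60. In all of these the RUNX1 values were below 11, and the H3K27me3 values of the library titled untreated were above those titled DOX except at the intronic Hoxd8 site. The value titled untreated was also the higher at 379 of the 573 promoter members (66.1%). By percentile within each list it was the higher at 49.7% of promoter members, so the direction is not read as a trait of Hox genes.

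Other homeobox genes accounted for 20 members (1.68%, 1.09 to 2.57) next to 19 genes, out of 121 RUNX1 sites (0.493% of all). The neural regulators Lhx2 (RUNX1 7.24, H3K27me3 19.7 and 21.03) and Pou3f3 (5.21, then 29.2 and 9.30) had a RUNX1 peak in the +DOX list only, while Pou4f1 (6.22, then 18.8 and 14.6) and Gbx1 (3.85, then 12.1 and 12.4) had one in the -DOX list only. Pax6, a regulator of eye development, had 4.81, 5.64, 5.19 and 2.64. Fox, Sox and T-box genes gave 6 members (0.503%, 0.231 to 1.09), an interval that holds the 0.298% of all RUNX1 sites. Sox17, an endoderm and endothelial regulator, had 16.8, 8.23, 9.56 and 8.36, Tbx1 had 3.22, 8.39, 11.7 and 11.5, and Eomes had 3.56, 4.96, 3.92 and 3.38. Basic helix-loop-helix and zinc finger regulators gave 7 (0.586%, 0.284 to 1.21), near the 0.530% of all RUNX1 sites. Among them was Klf15 with 15.6, 30.1, 16.5 and 5.56. The hedgehog effector Gli3 had 6.34 in the library labelled -DOX only and 8.71 and 5.54 in the H3K27me3 lists.

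Developmental signalling genes gave 19 members (1.59%, 1.02 to 2.47), against 0.709% of all RUNX1 sites. The 19 include the 3 members high in all lists with a telomeric run, at Flt1, Efna5 and Sema6d. The ligands were Wnt9a (7.60, 11.97, 20.2 and 15.6), Wnt2b, Fgf18 (9.72, 5.01, 18.4 and 8.47), Fgf2, Bmp8a, Pdgfb, Ntn1, Sema6d, Sema7a (9.97, 7.47, 17.7 and 7.002), Efna3, Efna5 and the Notch ligand Jag2 with 2 members. The receptors were Flt1, Ephb1 and 4 frizzled receptors of Wnt proteins. Of these, Fzd3 had 21.02, 12.3, 17.5 and 13.0, Fzd9 had 5.37, 3.74, 15.8 and 12.4, and Fzd1 and Fzd2 had a RUNX1 peak in 1 list each.

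**Figure D4:**
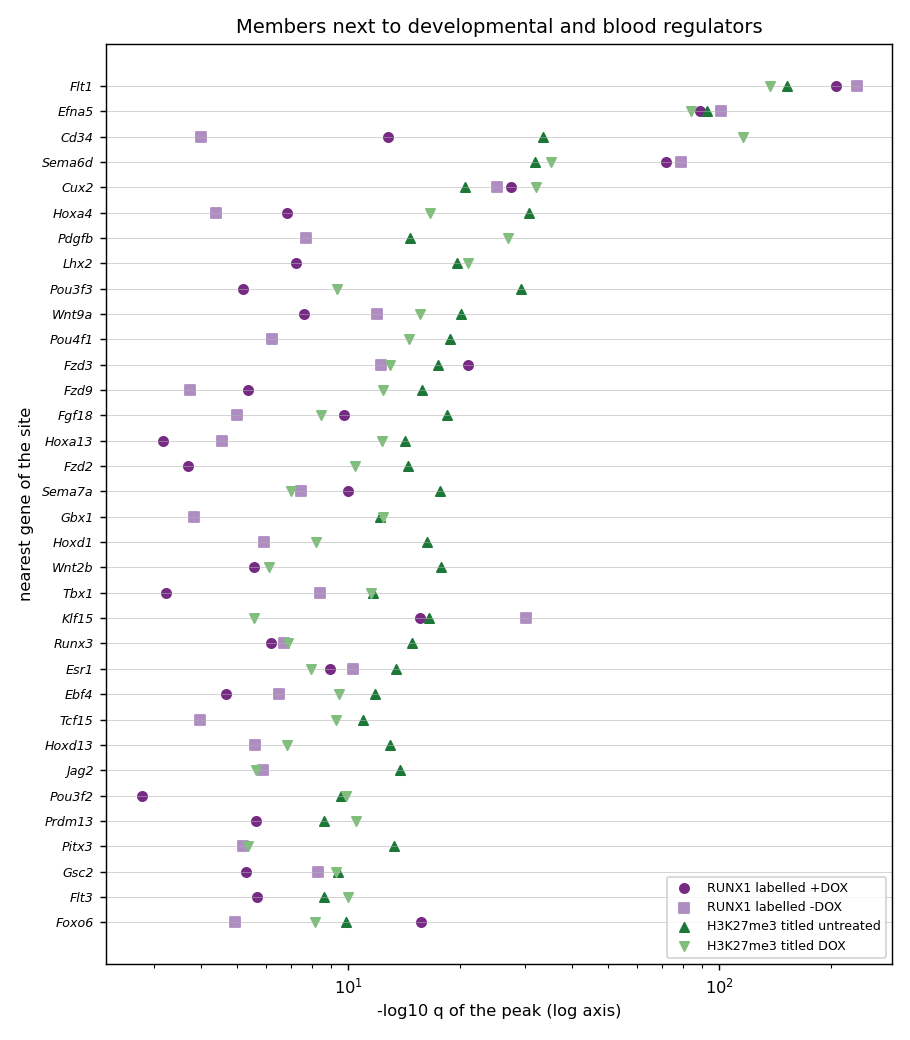
For 34 members next to a listed developmental or blood regulator, picked for a high mean H3K27me3 value, the horizontal log axis gives the -log10 q in each of the 4 lists, and a missing symbol stands for a list with no peak. Flt1 lies furthest to the right in every list. In the H3K27me3 list titled DOX, Cd34 (116) lies to the right of Efna5 (83.7). The choice of genes favours high H3K27me3 values, so their place relative to the RUNX1 symbols is no finding.

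Blood regulators were few. They were nearest to 6 members (0.503%, 0.231 to 1.09) and to 0.787% of all RUNX1 sites. Among promoter sites the share was 0.698% (0.272 to 1.78) at members and 0.839% (0.692 to 1.02) under neither list, so the intervals overlapped. Runx3, a relative of RUNX1, had 6.18, 6.71, 14.9 and 6.89 at a promoter in an untranslated region. The transcription factor gene Batf3 had 2.85, 4.80, 6.12 and 5.16, and Irf5 and the cytokine receptor gene Flt3 had a RUNX1 peak only in the library labelled +DOX, of 3.97 and 5.69. Cd34, a surface protein of progenitor and endothelial cells, had its member 10729 bp from the nearest start, with 12.8, 4.01, 33.5 and 116, the highest H3K27me3 value of these 6 genes. None of the 6 was soft-masked over 50% of its length or multi-copy, and 0 held the RUNX motif.

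Some gene groups were noticed only after the values were seen. All 4 nuclear factor I genes had a promoter member: Nfia (5.21, 2.66, 13.4 and 10.01), Nfib (8.85, 2.99, 11.0 and 5.10), Nfic (24.2, 18.3, 7.75 and 5.10) and Nfix, with 4.89 in the library labelled +DOX only. These genes were nearest to 4 members (0.335%, 0.130 to 0.858) and to 16 RUNX1 sites in all (0.0652%). Genes of ion channels and neurotransmitter receptors were nearest to 32 members, and 26 of these were promoter members. That is 4.54% (3.12 to 6.57) of promoter members, against 0.350% (0.260 to 0.471) of promoter sites under neither list. They included calcium channel genes such as Cacna1a (19.3, 8.21, 8.63 and 9.38) and Cacna1h (11.8, 9.28, 10.8 and 7.38), the potassium channel genes Kcnk3 (5.64, 7.69, 9.12 and 10.4) and Kcnh2 (7.17, 4.92, 5.85 and 4.73), and receptor genes such as Galr3 (7.40, 4.31, 15.3 and 16.2). Of the 32, 14 had their RUNX1 summit from the +DOX list alone, 4 from the -DOX list alone and 14 from both, against 28.4%, 14.7% and 56.8% of all RUNX1 sites, a split read no further because the group was chosen after its values were seen. Ribosomal protein genes were nearest to 0 members and to 91 RUNX1 sites in all (0.371%). Replication-dependent histone genes were nearest to 1 member, Hist3h2ba (3.45, 5.30, 7.62 and 4.53), and to 66 sites in all (0.269%). Among promoter members the shares were 0% (0 to 0.666) and 0.175% (0.0308 to 0.982). Promoter sites under neither list had 0.448% and 0.505%, inside these intervals, so a lack of these genes at promoter members is not shown. The DNA methyltransferase gene Dnmt3a had a member as well, with 8.92, 13.1, 5.05 and 8.94.

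Motifs of blood regulators were less frequent at members than at sites under neither list, and sites under 1 list were similarly poor in them. Both strands of a 200 bp window around the summit were searched, the same length for members and other sites. The RUNX motif TGTGGTT was found at 4.44% (3.41 to 5.76) of members and at 15.1% (14.6 to 15.6) of sites under neither list. At distal members it was found at 5.54% (3.84 to 7.95), against 25.5% (24.6 to 26.3) of distal sites under neither list. At promoter members it was found at 2.79% (1.73 to 4.49), against 6.33% (5.91 to 6.77) of promoter sites under neither list. The ETS motif (CAGGAAA, also with G as its last base or C as its second) was found at 8.46% (7.01 to 10.2) against 31.6% (31.01 to 32.2), the GATA motif AGATAA at 3.02% (2.19 to 4.15) against 12.4% (11.97 to 12.8), and the AP-1 motif TGACTCA or TGAGTCA at 1.34% (0.827 to 2.17) against 5.30% (5.01 to 5.60). Sites under 1 list held the RUNX motif at 4.04% (2.79 to 5.82), the ETS motif at 14.4%, the GATA motif at 4.19% and the AP-1 motif at 1.65%. The PU.1 motif was found at 3 of 1194 members and at 5.06% of sites under neither list. The ETS and PU.1 motifs share bases, so they are not separate counts. A match is a description of letters, and a window without a match may hold a weaker form of the motif. Of the 53 members with a RUNX motif, 25 were soft-masked or multi-copy, and of the 10 that were high in all lists 5 were the minor satellite sites described above.

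Median distances between the summits of the libraries were smaller at members high in all lists and distal members than at promoter members. They were measured at members only. The RUNX1 summit labelled +DOX lay at a median of 8.5 bp from the H3K27me3 summit titled untreated at members high in all lists, 18 bp at distal members (n = 431) and 118 bp at promoter members (n = 489). The share within 25 bp was 69.4%, 57.5% and 20.2%. Between the 2 RUNX1 libraries the median distances were 4, 12 and 57 bp, and between the 2 H3K27me3 libraries 7, 13 and 84 bp. Summits were thus closest within and between antibodies at the repeat-rich groups. At distal members the H3K27me3 peaks had a median width of 144 bp titled untreated and 116 bp titled DOX. At members high in all lists it was 227 and 189 bp, and at promoter members 304 and 217 bp. The median over the whole list titled untreated was 182 bp, and that titled DOX was close to the value at distal members. Members high in all lists and promoter members thus had peaks wider than the whole-list medians, and narrow peaks were not shared by both repeat-rich groups.

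**Figure D5:**
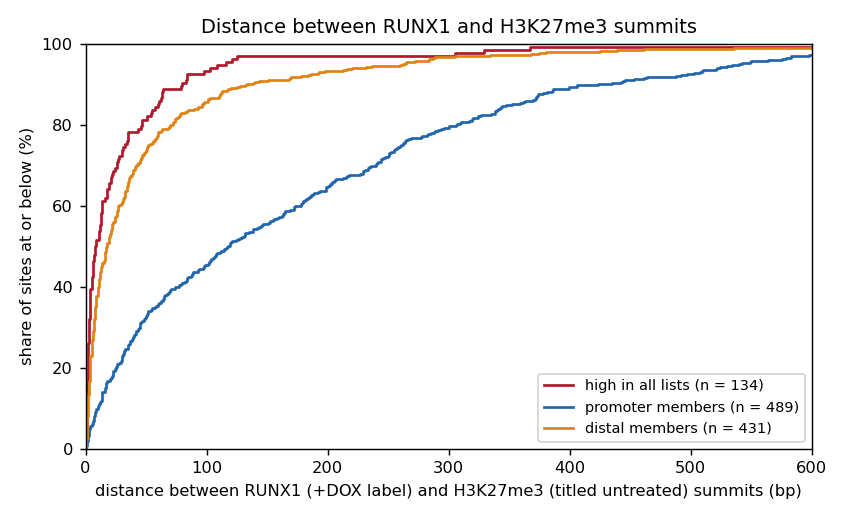
The curves give the percentage of members, by group, whose RUNX1 summit (labelled +DOX) lay within the distance on the horizontal axis, in bp, from the H3K27me3 summit titled untreated. The curves for members high in all lists and distal members rise steeply, with medians of 8.5 and 18 bp, and that for promoter members rises slowly, with a median of 118 bp.

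Peak strength moved together across the lists. The Spearman correlation of -log10 q between the RUNX1 library labelled +DOX and the H3K27me3 library titled untreated, across sites, was 0.32 at promoter members (n = 489), 0.48 at distal members (n = 431) and 0.73 at members high in all lists (n = 134). Between the 2 RUNX1 libraries it was 0.76, 0.85 and 0.93. Sites within a repeat family share sequence and are not independent, and the strong group was selected on these values. The members were also concentrated at the top of the RUNX1 lists. When the sites with a peak in both RUNX1 lists were ranked by their mean -log10 q, 38 of the 50 strongest (76%) were members, as were 51 of the strongest 100, 132 of the strongest 500 (26.4%) and 845 of all 14558 (5.80%).

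The RUNX1 lists divided the members as follows. A summit in both lists was present at 69.2% (66.5 to 71.7) of members, against 56.8% of all RUNX1 sites, and the groups differed. All 134 members high in all lists had one, which their selection fixed, as did 77.0% (73.1 to 80.5) of distal members, against 42.8% (41.8 to 43.7) of distal sites under neither list. At promoter members the share was 55.3% (51.2 to 59.3), below the 68.3% (67.5 to 69.1) of promoter sites under neither list. The +DOX list alone gave the summit at 18.2% (16.1 to 20.5) of members, against 28.4% of all RUNX1 sites, and the -DOX list alone at 12.6% (10.9 to 14.7), against 14.7%. Telomeric members had a summit in both lists at 115 of 116 sites and members with a run of C at 51 of 53. A summit in 1 list is a position in a list and not a measured change in binding, and with the labels of the RUNX1 libraries exchanged these shares exchange their names.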

How the data were processed

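ChIP-seq peak lists of 4 libraries were used, 2 for RUNX1 and 2 titled H3K27me3, with 1 library per condition. For each peak the deposited lists give a fold enrichment (a ratio over local background), the -log10 of its p-value and q-value, a display score and the summit position. For RUNX1 the authors describe trimming, alignment to mm10 with Bowtie2, duplicate removal with Picard and peak calling with MACS2 at a q-value of 0.05. The submitters' processing notes name Bowtie2 2.2.9 and MACS2 2.1.1. Processing of the H3K27me3 libraries and the control used are not given in the sources used here. Lists may precede the authors' filters against repeats.

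Peaks on chromosomes 1 to 19 were used. Sites, repeat and 31-base word content (GRCm38, the reference sequence of mm10), motifs and nearest starts (GENCODE vM21) were computed in Python 3.11.15 with numpy 2.4.6, pandas 2.3.3, pysam 0.24.0 and numba 0.67.0, and figures drawn with matplotlib 3.10.9. The counting of 31-base words, the merging of sites and their overlap with peaks were tested on simulated data, and the other steps were not. Named genes were those nearest to members on the gene lists, the 10 members high in all lists with the highest lowest -log10 q, the 10 other members with the highest lowest percentile, genes nearest to 3 or more members, members at the limit of the strong group, and the 3 with the most multi-copy sequence, of which a part is described. Tandem runs, satellite-like sites, nuclear factor I, ion channel and multigene family genes and any gene named beyond the rule were chosen after their values were seen. The members and gene lists were chosen with earlier results of these data known. With 1 library per condition no test, no p-value and no analysis without a replicate was possible. Alternatives changed the extension, the strength and overlap required, the promoter distance, the repeat limits and the chromosomes. Some items are not reported here.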

Additional observations from a re-analysis of the deposited data

How the results depend on the processing

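The number of members stayed within 1.5 times of 1194 under each alternative tried but the 5000 strongest peaks of each list, which left 488. Members high in all lists numbered 40 with a limit of the top 1% and 79 without soft-masked members. No paired analysis was possible because there was 1 library per condition and no test. Requiring a -log10 q of at least 5 in every list gave a promoter share of 37.9%, a soft-masked share of 36.6%, a multi-copy share of 31.1% and a share next to developmental regulators of 3.58%. The 5000 strongest peaks gave 25.6%, 43.9%, 33.2% and 1.43%, a summit in both RUNX1 lists 41.2%, 33.4%, 31.4% and 3.39%, and a RUNX1 summit inside a peak of each H3K27me3 list 41.2%, 33.8%, 30.8% and 3.43%. Stronger or closer peaks thus gave fewer promoters and developmental regulators and more repeats in these 4 settings. An extension of 100 bp gave 46.8% promoters, 33.8% soft-masked and 34.8% multi-copy. Without multi-copy members the promoter share was 56.1%, the soft-masked share 17.0% and the developmental share 6.62%, and without soft-masked members the promoter share was 61.6% and the multi-copy share 16.3%. The promoter share was 47.0% within 1000 bp of a start, 43.6% with protein-coding starts and 54.1% without members high in all lists, the last chosen after seeing the data. With the nearest protein-coding start the developmental share was 6.70%. A soft-masked summit was found at 41.7% of members, and at least 90% of 31-base words elsewhere at 9.55%. Adding chromosomes X and Y moved no value by more than its interval. Depth is unknown and limits all lists.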
